A study of Mus musculus with 8 samples.

Results

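The genes described here are the protein subunits of oxidative phosphorylation, taken as the protein-coding genes whose symbols start with Ndufa, Ndufb, Ndufc, Ndufs or Ndufv (but not Ndufaf), Sdha to Sdhd, Uqcr, Cox4 to Cox8, Atp5, mt-Nd, mt-Co, mt-Atp or mt-Cytb. The GENCODE annotation of the mouse genome (GRCm38) holds 99 such genes, and 94 of the 19493 endogenous genes of the count table are among them, 82 encoded in the nucleus and 12 in mitochondrial DNA. The other 5 (Cox7b2, Cox8b, Cox8c, mt-Nd4l and ENSMUSG00000116933, a gene model that overlaps the 3′ end of Atp5o and carries the same symbol) were not analysed here. By complex, 38 nuclear and 6 mitochondrially encoded members belong to complex I, 4 nuclear members to complex II, 8 and 1 to complex III, 15 and 3 to complex IV and 17 and 2 to complex V. A symbol is not a structure, and 4 members sit loosely in their class. Ndufa4 is now regarded as a subunit of complex IV, Ndufa4l2 is its relative, Cox7a2l helps to hold complexes III and IV together, and Atp5s is a coupling factor.

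Mouse embryonic fibroblasts (MEFs) from E14.5 embryos gave 4 WT and 4 Dp1Tyb RNAseq libraries, each with ERCC spike-ins, synthetic transcripts added at a fixed amount per cell. Dp1Tyb cells carry Dp(16Lipi-Zbtb21)1TybEmcf, a duplication of the part of chromosome 16 between Lipi and Zbtb21, and so hold 3 copies of each gene in it where WT cells hold 2. The embryos of both genotypes were littermates from mice backcrossed over many generations to C57BL/6JNimr (the labels give the strain background of all 8 as C57BL/6J.129P2), and all cultures were grown with foetal bovine serum and 2-mercaptoethanol and harvested with trypsin after passaging, the embryos having been decapitated and eviscerated. The comparison addresses how an added copy of 2 subunit genes, Atp5o and Atp5j, is reflected in the mRNA of the complexes, and whether the answer depends on scaling to the genes themselves or to the spike-ins. The labels do not say whether the embryos of one genotype came from one or several litters, so p-values measure the spread between these cultures.

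In oxidative phosphorylation, complexes I and II pass electrons from NADH and succinate to ubiquinone, complex III passes them to cytochrome c and complex IV to oxygen, and the proton gradient built on the way drives complex V, the ATP synthase. Complexes I, III, IV and V are built from subunits of both genomes, whereas complex II is wholly nuclear. The products of Atp5o (OSCP, also named Atp5po) and Atp5j (F6, also named Atp5pf) are neighbours in the peripheral stalk, which holds the catalytic head of the ATP synthase still while its rotor turns.

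Total counts per library ran from 17698900 to 26471758, of which 156045 to 347182 were spike-ins. All 10 fibroblast markers examined were present in each library, with summed levels of 22272 to 31832 CPM (counts scaled to library size) in WT and 26079 to 31666 CPM in Dp1Tyb. Of cell types rich in these complexes, the 10 muscle markers measured summed to 42.7 to 82.5 CPM in WT and 32.1, 114, 93.5 and 147 CPM in Dp1Tyb replicates 1 to 4, so that 3 Dp1Tyb libraries lay above every WT library, with Ttn at 22.3 to 87.2, Des at 3.21 to 30.3, Acta1 at 0.804 to 17.1 and Myog at 0.0984 to 0.921 CPM over the 8 libraries, while Myod1, Myf5, Myf6 and Ckm were not analysed here. Of the brown fat markers, Ppargc1a and Dio2 summed to 5.18 to 22.7 CPM in WT and 7.85 to 21.2 CPM in Dp1Tyb, and Ucp1, Cidea and Elovl3 were not analysed here. The 5 leukocyte markers summed to 249 to 345 CPM in WT and 139 to 283 CPM in Dp1Tyb, and Ptprc, the pan-leukocyte CD45 gene, was at 13.7 to 15.1 CPM in WT and 7.1 to 8.2 CPM in Dp1Tyb without overlap. In a bulk library fewer cells of a type and less RNA per cell cannot be told apart, and the part of these marker differences in the values below was not tested.

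The promoters of the duplicated members are shown because 1 of them is shared with a regulator of this gene set. Atp5j lies on chromosome 16 from 84827866 to 84835625 on the minus strand, and Gabpa, which encodes the DNA-binding subunit of the respiratory regulator NRF2 (GABP), starts in GENCODE at 84834925 on the plus strand, so that the gene models overlap and their starts lie 700 bases apart. The promoter windows are those of RefSeq (GRCm38.p6), which places the Gabpa start elsewhere and lists 2 Atp5j starts, and the window of the second (250 bases before to 50 after the start) covers 247 bases of the Gabpa window on the opposite strand. Atp5o lies on the same chromosome from 91925214 to 91931687, also on the minus strand. The sequences are given 5′ to 3′ on the strand of each gene. Capitals mark matches, on either strand, to AAGATGGC (a YY1 core), CCGGAAG (the first letters of the ETS core CCGGAAGT, to which Gabpa binds) and GCATGCG (the last letters of the NRF1 core GCGCATGCG).
Atp5j, chr16:84834927-84835226, minus strand: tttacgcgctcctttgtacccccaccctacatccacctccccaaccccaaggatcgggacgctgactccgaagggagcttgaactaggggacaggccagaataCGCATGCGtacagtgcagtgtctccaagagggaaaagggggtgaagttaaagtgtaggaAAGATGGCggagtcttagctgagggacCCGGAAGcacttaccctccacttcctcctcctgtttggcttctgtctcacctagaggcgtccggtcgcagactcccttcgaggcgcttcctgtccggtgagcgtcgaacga
Gabpa, chr16:84834874-84835173, plus strand: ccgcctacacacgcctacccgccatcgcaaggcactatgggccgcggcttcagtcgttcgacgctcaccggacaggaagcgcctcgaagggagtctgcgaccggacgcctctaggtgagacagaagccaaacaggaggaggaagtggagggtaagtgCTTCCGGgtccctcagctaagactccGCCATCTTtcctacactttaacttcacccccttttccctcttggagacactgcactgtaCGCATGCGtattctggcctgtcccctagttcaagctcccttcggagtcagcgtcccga
Atp5o, chr16:91931581-91931880, minus strand: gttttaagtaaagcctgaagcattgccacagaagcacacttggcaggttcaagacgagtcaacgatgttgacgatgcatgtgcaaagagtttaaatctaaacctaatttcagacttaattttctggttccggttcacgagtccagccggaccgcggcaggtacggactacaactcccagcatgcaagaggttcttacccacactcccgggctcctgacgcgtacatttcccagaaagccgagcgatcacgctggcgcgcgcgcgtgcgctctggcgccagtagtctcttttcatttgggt

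The Atp5j window held 1 match to AAGATGGC, 1 to CCGGAAG and a run in which GCATGCG is read on both strands, and the same stretch lies in the Gabpa window. The Atp5o window and the other Atp5j window held no match to these letters. RefSeq promoters were matched for 67 of the 82 nuclear members by symbol or synonym, giving 72 windows, and they are set beside all 32851 tabled windows. AAGATGGC was found in 10 member windows (13.9%) and in 2.75% of all windows. GCGCATGCG was found in 8 member windows (11.1%) and in 1.75% of all windows, and CCGGAAGT in 5 (6.94%) and 3.89%. The shorter letters, chosen after the Atp5j promoter had been read, were found in 15.3% of member windows against 3.58% of all windows for GCATGCG and in 22.2% against 8.86% for CCGGAAG. The promoters that hold AAGATGGC are those of Atp5j, Atp5j2, Atp5f1 (listed as Atp5pb), Ndufa3, Ndufa9, Ndufb8, Ndufc1, Ndufs4, Ndufs6 and Ndufs7. Those that hold GCGCATGCG are those of Atp5g2, Atp5k, Atp5l, Cox6a1, Ndufa8, Ndufa11, Uqcr11 and Uqcrc1. A match is a description of letters and does not show binding.

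Libraries were compared in CPM under relative scaling (TMM factors over the endogenous genes) and under spike-in scaling (median-of-ratios factors over the spike-ins), and 93 of the 94 members passed the filter on low counts. Cox6a2 did not pass, with 0 to 14 counts per library. No member reached an adjusted p under 0.05 (edgeR quasi-likelihood test, Benjamini-Hochberg over 16470 genes) under either scaling, where 0.0182% of all genes were called with relative and 0.0121% with spike-in scaling. DESeq2 with its own size factors called 2 members, Atp5o and Atp5j, against 0.322% of all genes, and with spike-in factors it called 0 members against 0.0121% of all genes. At an unadjusted p under 0.05 in edgeR with relative scaling, 6 members were higher in Dp1Tyb (Atp5o, Atp5j, Ndufa8, Ndufs8, Sdhb and Cox6a1), which is 6.45% against 1.74% of all genes. Only 2 members (2.15%) passed when Dp1Tyb replicate 2 was left out, against 1.49% of all genes in that fit, and 2 with upper-quartile factors, against 1.03%. With WT replicate 2 left out, 3 members (3.23%) passed against 2.48% of all genes. At that threshold 0 members were lower, against 2.53% of all genes. With spike-in scaling the higher members were Atp5o and Atp5j alone, 2.15% against 0.85% of all genes, and 0 were lower against 0.316%.

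Counted by libraries, 8 members had 4 Dp1Tyb values above all 4 WT values under relative scaling (Atp5o, Atp5j, Ndufb10, Ndufs7, Ndufs8, Sdhb, Uqcrc1 and Cox6a1), 8.60% against 1.64% of all genes. The reverse held for 0 members and for 1.52% of all genes. Under spike-in scaling only Atp5o and Atp5j were separated in this way (0.285% of all genes), and 0 members were separated downwards (0.14% of all genes).

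The duplicated subunit genes had the highest fold changes of the members tested. Atp5o (ENSMUSG00000022956), which encodes OSCP at the top of the stalk, was at 71.5, 85.2, 78.1 and 80.7 CPM in WT replicates 1 to 4 and at 118, 173, 126 and 121 CPM in Dp1Tyb replicates 1 to 4. Each Dp1Tyb library lay above each WT library, and Dp1Tyb replicate 2 stood above the other three. The group means were 78.9 ± 5.70 and 134.6 ± 25.8 CPM (SD, n = 4 each), and the log2 fold change (edgeR) of 0.77 (SE 0.13, 95% interval 0.47 to 1.07) is a ratio of 1.71 (1.38 to 2.10). Its adjusted p was 0.21 in the edgeR quasi-likelihood test and 0.000826 in DESeq2. Under spike-in scaling Atp5o had a value of 0.83 (SE 0.32) and did not pass in edgeR or DESeq2 (adjusted p = 1.00 in each).

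Atp5j (ENSMUSG00000022890), which encodes the stalk subunit F6, was at 71.3, 79.9, 69.3 and 76.4 CPM in WT and at 101.2, 152, 109.9 and 104.5 CPM in Dp1Tyb. The groups again did not overlap, and Dp1Tyb replicate 2 was again the highest library. The means were 74.2 ± 4.84 and 117 ± 23.9 CPM (SD, n = 4 each), and the log2 fold change was 0.66 (SE 0.14, 95% interval 0.35 to 0.97), a ratio of 1.58 (1.27 to 1.95). Its adjusted p was 0.35 in the edgeR quasi-likelihood test and 0.0178 in DESeq2. Under spike-in scaling Atp5j had a value of 0.71 (SE 0.32) and did not pass in edgeR or DESeq2 (adjusted p = 1.00 in each). The ratio of 3 copies to 2 is 1.5, which lies inside the 95% interval of both genes under relative scaling. Among the 112 tested genes of the duplication, whose median log2 fold change was 0.54, Atp5o ranked 17 and Atp5j ranked 37 from the top.

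A ratio taken within a library does not depend on the scaling between libraries. The log2 ratio of Atp5o counts to the summed counts of the 15 nuclear complex V members outside the duplication was -4.59, -4.49, -4.59 and -4.62 in WT and -4.10, -3.73, -3.90 and -4.04 in Dp1Tyb. For Atp5j the ratios were -4.60, -4.58, -4.76 and -4.70 in WT and -4.33, -3.91, -4.10 and -4.25 in Dp1Tyb. Both ratios were thus higher in every Dp1Tyb library, by 0.63 for Atp5o and 0.51 for Atp5j on the log2 scale. Without Dp1Tyb replicate 2, these differences were 0.56 and 0.43. Between the duplicated members themselves, Atp5o exceeded Atp5j in counts. The mean ratio was 1.06 (SD 0.05) for WT libraries and 1.15 (SD 0.02) for Dp1Tyb libraries. The ranges, 1.00 to 1.128 in WT and 1.135 to 1.17 in Dp1Tyb, nearly met. This ratio has no test, and neither its counting error nor the share of other gene pairs without overlap was measured.

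**Figure D1:**
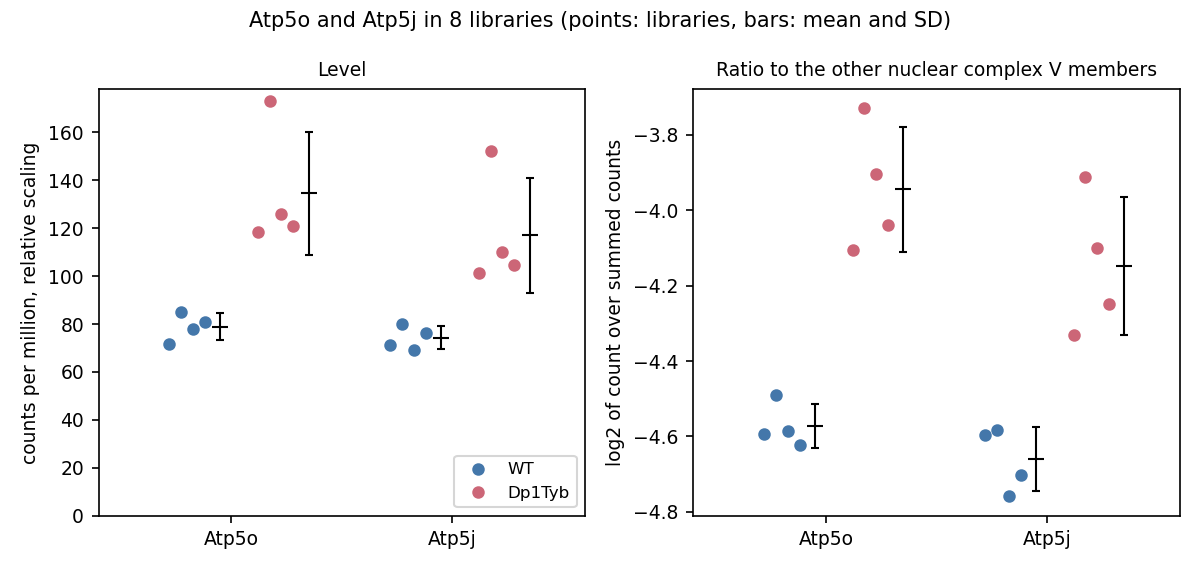
Level of Atp5o and Atp5j in CPM under relative scaling (left) and log2 ratio of each to the summed counts of the 15 nuclear complex V members outside the duplication (right), with 1 point per library and bars for mean and SD (n = 4 per genotype). In both panels the Dp1Tyb libraries lie above the WT libraries, and Dp1Tyb replicate 2 is the highest.

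The other nuclear members of complex V had smaller fold changes. Under relative scaling the log2 fold changes of the 15 outside the duplication ran from -0.12 to 0.21 with a median of 0.12, and 14 lay above 0. At an unadjusted p under 0.05 in edgeR 0 of them passed, beside 1.74% of all genes higher and 2.53% lower. Between the groups 0 were separated, beside 1.64% of all genes upwards and 1.52% downwards. Among 15 genes, 0 is near these shares. Atp5b, the catalytic beta subunit, had the highest level per length among nuclear members, with a mean of 372 RPKM (CPM divided by transcript length in kilobases) and library values of 314 to 384 RPKM in WT and 354 to 413 RPKM in Dp1Tyb. Atp5a1, the alpha subunit with which it forms the head, followed at a mean of 170 RPKM, with WT libraries at 152 to 174 and Dp1Tyb libraries at 165 to 198 RPKM. The order rests on the length used. With the length of all annotated exons in place of the principal transcript, a choice made after seeing the data, Atp5b was at 168 RPKM and ranked 2 among nuclear members, after Cox6b1 at 170.4 RPKM. Atp5e, the epsilon subunit of the rotor, had the lowest fold change of the complex and the largest spread within groups, at 32.9, 30.9, 20.2 and 18.2 CPM in WT and 16.7, 37.7, 21.6 and 18.0 CPM in Dp1Tyb. The log2 difference for Atp5e was -0.12 (SE 0.29), smaller than the spread between libraries. Atp5s had the lowest level, at a mean of 2.83 RPKM.

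**Figure D2:**
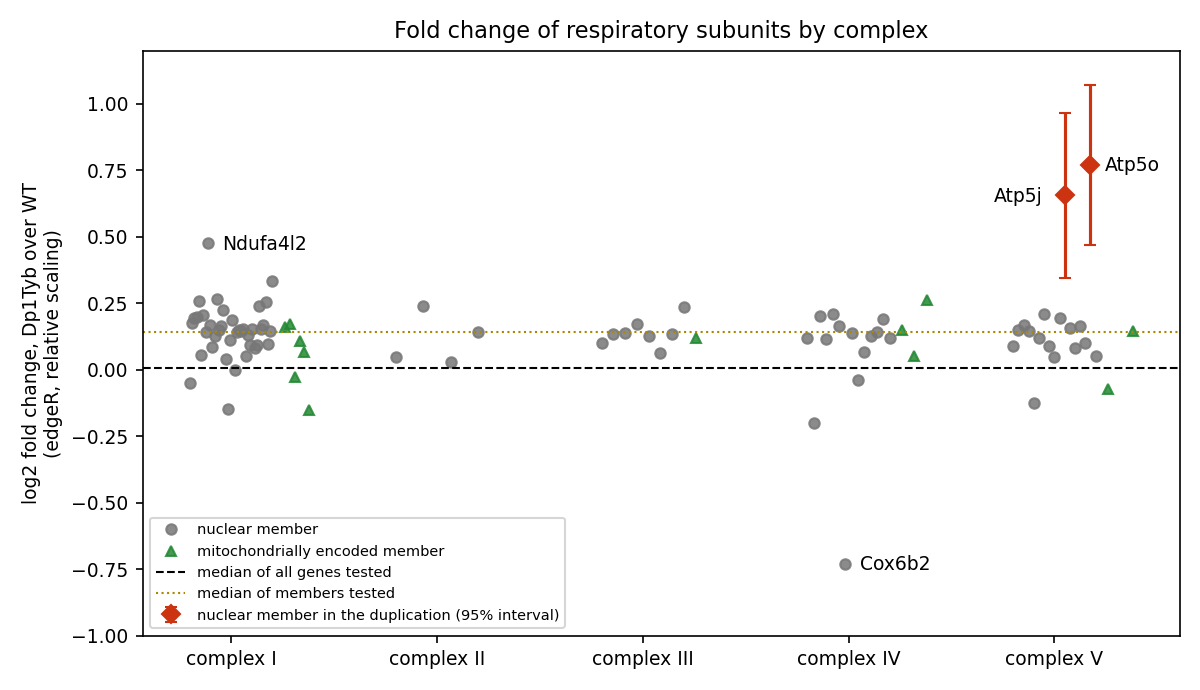
Log2 fold change (Dp1Tyb over WT, edgeR, relative scaling) of the 93 members that passed the filter, by complex, with nuclear members as circles, mitochondrially encoded members as triangles and the 2 duplicated members as diamonds with 95% intervals. The dashed line is the median of all 16470 genes (0.006) and the dotted line the median of the members shown (0.14). Atp5o and Atp5j stand above the others, and the low point of complex IV is Cox6b2.

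Over the members tested, 83 of 93 (89.2%) had a log2 fold change above 0 under relative scaling, beside 51.2% of all genes, and the median was 0.14 beside 0.006. Under spike-in scaling 86 of 93 (92.5%) lay above 0, beside 70.4% of all genes, with medians of 0.23 and 0.11. The median of all genes thus moved by 0.11 with the scaling, and the members' median exceeded it by a similar amount under both. Highly expressed genes were also more often above 0, a comparison added after seeing the data. Of genes with a mean of at least 300 counts, 62.9% lay above 0 under relative scaling (median 0.04), and of the 82 members above that level 78 did (95.1%, median 0.14). Under spike-in scaling the shares at that level were 86.7% of genes (median 0.15) and 97.6% of members (median 0.23), closer together than over all genes. Lying above 0 was not particular to the members. Of the related lists described below, 72 of 76 mitochondrial ribosomal protein genes, 40 of 45 assembly factors and 15 of 16 electron carriers and exchangers lay above 0 under relative scaling. So did 24 of 31 genes for mitochondrial DNA, but only 8 of 20 regulators of respiratory genes. The genes share libraries, so these counts are no sample of independent values. Without Dp1Tyb replicate 2, 69 of 93 (74.2%) lay above 0 under relative scaling, beside 49.4% of all genes in the same fit, and 89 of 93 (95.7%) under spike-in scaling, beside 84.7%.

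That library stood out among the nuclear members under relative scaling. Of the 82, 59 had their highest Dp1Tyb value in replicate 2, 20 in replicate 1, 1 in replicate 3 and 2 in replicate 4. In WT the highest values were spread over the replicates, with 23, 21, 7 and 31 members. Nuclear members took 0.532, 0.509, 0.524 and 0.531% of the endogenous counts in WT and 0.570, 0.618, 0.516 and 0.537% in Dp1Tyb. The groups overlapped, since Dp1Tyb replicate 3 lay below 3 WT libraries, and the means were 0.524 ± 0.011% and 0.560 ± 0.045% (SD, n = 4 each). They differed by 0.036 percentage points, and by 0.017 without Dp1Tyb replicate 2.

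Other values moved with that library. The 5 pericyte and smooth muscle markers summed to 547, 1814, 607 and 717 CPM in WT replicates 1 to 4. In Dp1Tyb replicates 1 to 4 they summed to 518, 2125, 1553 and 1249 CPM. Most of the sum in Dp1Tyb replicate 2 was Acta2, the smooth muscle actin gene, at 1923 CPM. The list did not run one way there. Acta2, Kcnj8 and Myh11 had their highest values of the 8 libraries, but Rgs5 had its lowest, 1.67 CPM. Cspg4 was at 185 CPM, inside its range of 139 to 268 CPM over the 8 libraries. The RNA of Dp1Tyb replicate 2 relative to spike-ins (the ratio of the library size under relative scaling to that under spike-in scaling) was the lowest of the 8 libraries, at 0.688 beside 0.713 to 1.19 in WT and 1.05 to 1.31 in the other Dp1Tyb libraries. Under spike-in scaling it was the lowest Dp1Tyb library for Atp5o, at 118.9 CPM against 132.7 to 158.8 CPM. The part of these differences in the nuclear members was not tested.

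Complex I takes electrons from NADH. Of its 38 nuclear members 35 lay above 0 under relative scaling, with a median log2 fold change of 0.15. Ndufs8, which carries iron-sulfur clusters in the arm that leads electrons to ubiquinone, was at 32.3, 31.7, 36.7 and 35.5 CPM in WT and at 37.9, 44.2, 39.3 and 41.3 CPM in Dp1Tyb, without overlap (log2 fold change 0.26, SE 0.10). Ndufs7, the subunit next to the ubiquinone site, was at 20.5, 19.4, 20.1 and 22.0 CPM in WT and at 23.2, 24.2, 22.3 and 22.5 CPM in Dp1Tyb, a narrow gap between the groups (log2 fold change 0.17, SE 0.10). For the accessory subunit Ndufb10 the values were 32.9, 36.2, 40.3 and 40.2 CPM in WT and 48.6, 41.1, 40.6 and 44.3 CPM in Dp1Tyb (log2 fold change 0.22, SE 0.11). The groups of Ndufb10 just failed to meet, whereas those of Ndufa8 overlapped, at 34.4, 39.7, 37.8 and 41.7 CPM in WT and 48.1, 50.8, 41.1 and 44.9 CPM in Dp1Tyb (log2 fold change 0.27, SE 0.11). None of these 4 passed the edgeR test after Benjamini-Hochberg adjustment (adjusted p = 0.999 each), and under spike-in scaling their log2 fold changes were 0.36, 0.26, 0.36 and 0.36 in the order given, with overlap between the groups.

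Relative to the summed counts of the other 37 nuclear members of complex I, Ndufb5 was the 1 of 38 whose groups did not overlap, being lower in Dp1Tyb, with log2 ratios of -5.43, -5.50, -5.61 and -5.59 in WT and -5.65, -5.68, -5.82 and -5.63 in Dp1Tyb. Its own log2 fold change was -0.0004, while the median of the complex was 0.15. Ndufb5 was singled out after these ratios were seen, and the ratio has no test and no share over all genes beside it. The lowest level per length in complex I was that of Ndufb2, at 1.48 RPKM over a listed principal transcript of 4371 bases, with 92 to 186 counts per library. The highest nuclear level was that of Ndufa4, at 100.3 RPKM.

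Complex II links the citric acid cycle to ubiquinone, and all 4 of its subunits lay above 0. Sdhb, the iron-sulfur subunit, was at 52.6, 51.7, 57.5 and 57.5 CPM in WT and 71.7, 68.1, 57.9 and 61.4 CPM in Dp1Tyb. Dp1Tyb replicate 3 was barely above the highest WT library, and the log2 fold change was 0.24 (SE 0.10, edgeR adjusted p = 0.999). The log2 ratio of Sdhb to the other 3 subunits was -2.47, -2.42, -2.28 and -2.26 in WT and -2.12, -2.15, -2.25 and -2.18 in Dp1Tyb. The means differed by 0.18, but WT replicate 4 and Dp1Tyb replicate 3 were nearly level, and as for Ndufb5 the ratio was singled out after its values were seen and has no test. Sdha, the flavoprotein, showed the smallest spread within groups of any member, a SD of 0.06 on the log2 CPM scale, with 161.5 to 168 CPM in WT and 162 to 184 CPM in Dp1Tyb. Sdhc, a membrane anchor, had the lowest fold change, 0.03 (SE 0.10).

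Complex III passes electrons from ubiquinol to cytochrome c, and all 8 nuclear members lay above 0, with log2 fold changes from 0.06 to 0.24. Uqcrc1, a core protein, was at 87.2, 95.7, 91.6 and 96.3 CPM in WT and 101.9, 106.4, 96.8 and 113.1 CPM in Dp1Tyb, without overlap (log2 fold change 0.17, SE 0.09). The extremes of the complex were Uqcrq at 0.24 (SE 0.19) and the Rieske iron-sulfur protein Uqcrfs1 at 0.06 (SE 0.17). Both had their highest WT value in replicate 2 (49.7 and 46.9 CPM) and their highest Dp1Tyb value in replicate 2 (60.3 and 53.7 CPM), so that the libraries differed more within genotypes than between them. Without Dp1Tyb replicate 2 the values were 0.0649 for Uqcrq and -0.11 for Uqcrfs1, and without WT replicate 2 Uqcrq was at 0.40.

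Complex IV reduces oxygen, and 11 of its 14 tested nuclear members lay above 0. Cox6a1, the broadly expressed form of subunit VIa, was at 94.0, 90.4, 92.4 and 98.5 CPM in WT and 117, 113, 102 and 103 CPM in Dp1Tyb, without overlap (log2 fold change 0.21, SE 0.09, edgeR adjusted p = 0.999). The 3 members below 0 were Cox4i2, Cox6b2 and Cox7a1, all with a mean under 50 counts.

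Several subunits of complexes I, IV and V have forms that are used in different tissues, and the cultures held the broadly expressed forms at far higher levels per length. Mean levels were 184.6 RPKM for Cox4i1 and 0.923 RPKM for the lung form Cox4i2, 177 RPKM for Cox6a1 and 0.377 RPKM for the muscle form Cox6a2, 195 RPKM for Cox6b1 and 3.92 RPKM for the testis form Cox6b2, and 84.7 RPKM for Cox7a2 and 2.23 RPKM for the muscle form Cox7a1. Of the 3 genes for the c ring of complex V, Atp5g3 was at 107, Atp5g2 at 50.3 and Atp5g1 at 9.64 RPKM. The ranges of these 3 over the libraries did not meet. The Atp5g1 level rests on a listed transcript of 4715 bases, and 34.7% of the 100-base windows of Atp5g2 also occur in other genes, so both are uncertain.

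Cox6b2 had the lowest fold change of all members, -0.73 (SE 0.52). Its values were 6.75, 1.32, 1.94 and 1.46 CPM in WT and 1.93, 2.13, 1.62 and 1.21 CPM in Dp1Tyb. A single library, WT replicate 1, lay above the rest, and without it the value was 0.145. Ndufa4l2, a gene known to be induced by low oxygen, had the highest fold change outside the duplication, 0.48 (SE 0.71). Its values were 6.88, 1.23, 2.18 and 0.825 CPM in WT and 9.09, 2.08, 1.97 and 2.13 CPM in Dp1Tyb, so replicate 1 was the high library in both genotypes. Without Dp1Tyb replicate 1 the log2 fold change of Ndufa4l2 was -0.43.

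The 8 hypoxia-response markers summed to 347 to 415 CPM in WT and to 820, 391, 427 and 474 CPM in Dp1Tyb replicates 1 to 4. In Dp1Tyb replicate 1 the mitophagy receptor Bnip3 was at 202 CPM against 38.1 to 61.4 CPM in the other 7 libraries, the glucose transporter Slc2a1 at 221 against 73.5 to 108.9 CPM and Pdk1, which restrains the entry of pyruvate into the citric acid cycle, at 97.1 against 18.7 to 42.7 CPM. In WT replicate 1 Adm was at 35.2 CPM, beside 35.7 CPM in Dp1Tyb replicate 1 and 10.2 to 12.6 CPM elsewhere, and Bnip3 and Pdk1 were at the top of the ranges just given. The list did not run one way there, since Vegfa (99.5 CPM) and Ndrg1 (33.1 CPM) had their lowest values of the 8 libraries in WT replicate 1 and the summed level was 361 CPM, inside the range of WT. Their part in the Ndufa4l2 values was not tested.

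**Figure D3:**
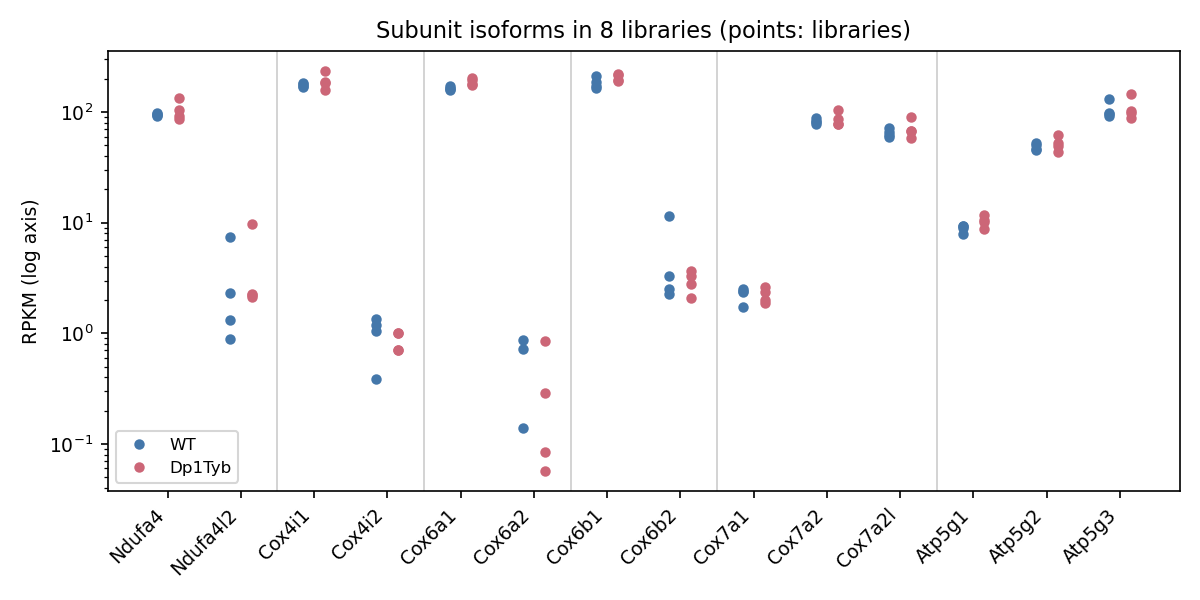
RPKM (log axis) of subunit isoforms in each of the 8 libraries, WT in blue and Dp1Tyb in red, with vertical lines between families. The broadly expressed Cox4i1, Cox6a1 and Cox6b1 lie above 150 RPKM and the tissue-restricted forms Cox4i2, Cox6a2, Cox6b2 and Cox7a1 lie far lower. WT replicate 4, with 0 counts of Cox6a2, is not drawn.

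The mitochondrially encoded members made up a larger part of the libraries than the nuclear ones. The 12 genes took 2.16, 2.07, 2.78 and 3.06% of the endogenous counts in WT and 2.61, 2.64, 2.64 and 2.64% in Dp1Tyb. Among them mt-Co2, mt-Co3, mt-Atp6 and mt-Nd3 were almost absent from the counts, as described below, and mt-Nd4l was not analysed here. These values are thus shares of counted reads and not of all mitochondrial mRNA. The Dp1Tyb libraries fell within a narrow band inside the range of the WT libraries, with means of 2.52 ± 0.48% and 2.63 ± 0.017% (SD, n = 4 each). This gap of 0.115 percentage points was smaller than the spread in WT. It was -0.0042 without WT replicate 1 and -0.036 without WT replicate 2. Over all left-out libraries it reached 0.296 at most. The log2 ratio of mitochondrially encoded to nuclear members averaged 2.24 in both genotypes, with a SD of 0.26 for WT and 0.11 for Dp1Tyb libraries.

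**Figure D4:**
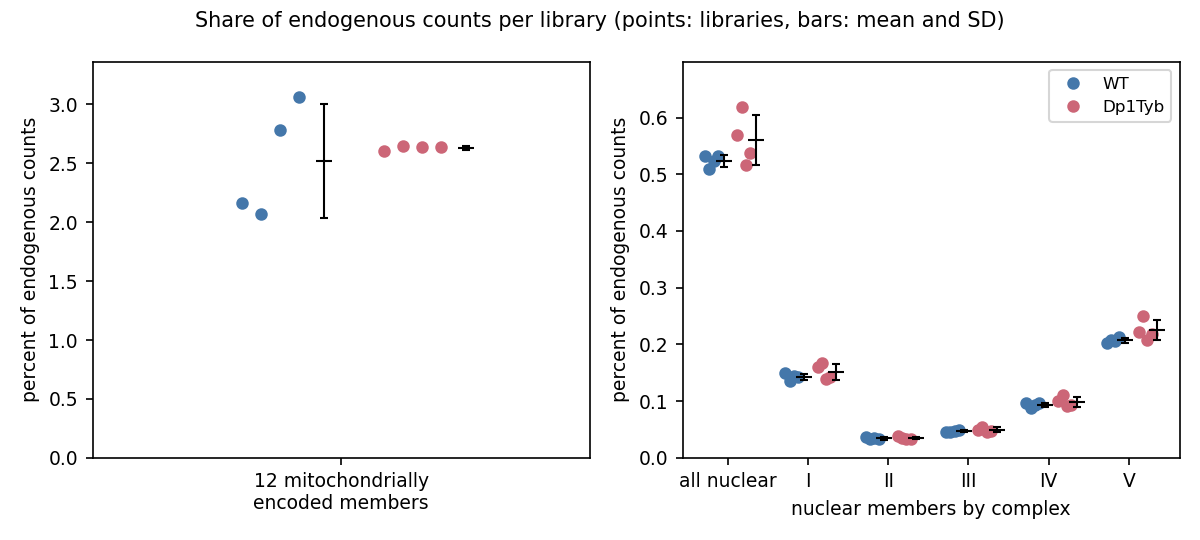
Percent of endogenous counts from the 12 mitochondrially encoded members (left) and from the nuclear members, together and by complex (right), with 1 point per library and bars for mean and SD (n = 4 per genotype). WT libraries span 2.07 to 3.06% on the left and Dp1Tyb libraries 2.61 to 2.64%, and on the right the highest point of all nuclear members is Dp1Tyb replicate 2.

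By gene, mt-Co1, the catalytic core of complex IV, had the highest level per length, a mean of 4902 RPKM, with 3818 to 5375 RPKM in WT and 4577 to 5603 RPKM in Dp1Tyb. The complex I subunit mt-Nd1 (3880 RPKM) and cytochrome b of complex III, mt-Cytb (3837 RPKM), followed, with ranges over libraries that overlapped each other and that of mt-Co1. The log2 fold changes of mt-Co1, mt-Cytb, mt-Nd1, mt-Nd2, mt-Nd4, mt-Nd5 and mt-Atp8 lay between 0.07 and 0.17 under relative scaling, with SE of 0.15 to 0.19. For mt-Nd1 the libraries held 2614, 2871, 3901 and 4642 CPM in WT and 4072, 3946, 3869 and 3785 CPM in Dp1Tyb. As with the summed share, WT replicates 1 and 2 were low and WT replicate 4 was high.

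The remaining well-covered gene, mt-Nd6, is the sole member read from the other strand of mitochondrial DNA. It had the lowest fold change of complex I, -0.15 (SE 0.22), with 665, 461, 804 and 1016 CPM in WT and 630, 682, 550 and 789 CPM in Dp1Tyb. Its count relative to that of mt-Nd5, with which it overlaps tail to tail on chromosome M (13552 to 14070 for mt-Nd6 and 11742 to 13565 for mt-Nd5), averaged 0.152 (SD 0.015) for WT and 0.132 (SD 0.016) for Dp1Tyb, with overlap. Libraries were prepared with a stranded kit, but the strand setting of the counting is not given in the sources used here, and without strand the reads of mt-Nd6 and of heavy-strand RNA cannot be told apart.

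Against these levels, mt-Co2, mt-Co3, mt-Atp6 and mt-Nd3 were almost absent from the table. The RNA of mt-Co2, a core subunit like mt-Co1, gave 34 to 58 counts per library, where mt-Co1 gave 132003 to 182863. Counts ran from 33 to 56 for mt-Co3, from 35 to 85 for mt-Atp6 and from 109 to 319 for mt-Nd3. Their mean levels were 3.12, 2.60, 3.73 and 27.2 RPKM, while the other 8 mitochondrially encoded members ranged from 1155 to 4902 RPKM.

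These 4 genes are the members whose sequence occurs almost whole in other annotated genes. Nuclear DNA outside annotated genes was not searched. The genes are copied in order in a stretch of chromosome 1, and of their 100-base windows 99.5% (mt-Co2), 99.9% (mt-Co3), 99.5% (mt-Atp6) and 97.6% (mt-Nd3) were found in the unprocessed pseudogenes Gm28661 (24614885 to 24615565), Gm28437 (24613189 to 24613971), Gm10925 (24613974 to 24614651) and Gm28438 (24612775 to 24613119). Gm28661 matched mt-Co2 at all 681 aligned bases, Gm28437 matched mt-Co3 at all 783, and Gm28438 differed from mt-Nd3 at 1 of 345. The first 100 bases of mt-Co2 (chromosome M, 7013 to 7696), shown because they occur letter for letter in Gm28661, serve as an example of a read that has 2 places to align.
mt-Co2, bases 1 to 100 of the transcript: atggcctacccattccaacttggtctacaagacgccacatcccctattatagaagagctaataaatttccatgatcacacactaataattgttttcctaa

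The authors discarded reads that aligned to several places. The pseudogenes themselves were as low as these 4 genes, with 14 to 26 counts per library for Gm28661, 15 to 32 for Gm28437 and 1 to 8 for Gm28438. Gm10925 ranged from 19 to 356 counts, with 241 and 356 in WT replicates 2 and 4 and 275 in Dp1Tyb replicate 2. A share of 60.8% of windows occurred in other annotated genes for mt-Nd4 and 30.8% for mt-Co1. The part of discarded reads in the levels of mt-Nd4 (1155 RPKM) and mt-Co1 was not tested, so their place among the other genes is uncertain. The share of windows in other annotated genes was 3.2% for mt-Nd2 and 0% for mt-Nd1, mt-Nd5, mt-Nd6, mt-Cytb and mt-Atp8. A share of 0% does not exclude a copy outside annotated genes. The fold changes of mt-Co2 (0.05), mt-Co3 (0.26), mt-Atp6 (-0.07) and mt-Nd3 (-0.03) rest on these low counts. Whether discarded reads account for them was not tested, and their level in RNA cannot be read from this table.

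**Figure D5:**
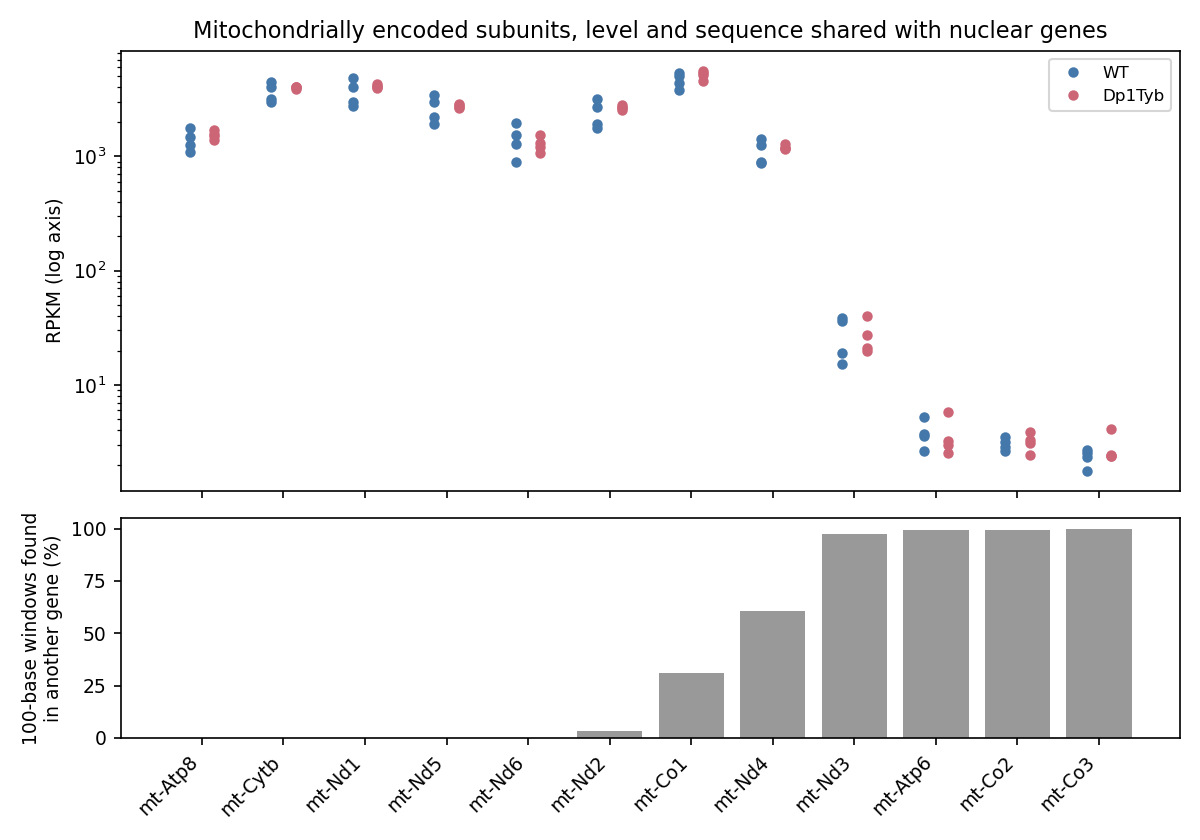
RPKM (log axis) of the 12 mitochondrially encoded members in each library, WT in blue and Dp1Tyb in red (top), and percent of the 100-base windows of each gene that occur in another gene of the annotation (bottom). The 4 genes with more than 97% of windows shared lie between 1 and 50 RPKM and the other 8 above 800 RPKM.

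Of the nuclear members, 17 had at least 1 window of 100 bases that occurs in another gene, mostly a processed pseudogene, from 1.04% in Cox6a1 to 34.7% in Atp5g2. Atp5o had 1.4% of its windows in Gm5436 on chromosome 12, and Atp5j had 0%.

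Genes that build, control or serve the complexes were examined from lists, beside 1.74% of all genes that were higher and 2.53% that were lower at an unadjusted p under 0.05 in edgeR with relative scaling. Of 45 tested assembly factors, 1 was higher at that threshold (Timmdc1, a complex I assembly factor outside the duplication, log2 fold change 0.31, SE 0.11) and 0 were lower, which is near the share of all genes, and the median log2 fold change was 0.12. Of 31 genes for maintenance and expression of mitochondrial DNA, 0 passed that threshold in either direction, with a median of 0.07. Tfam, which packages mitochondrial DNA and starts its transcription, had a log2 fold change of 0.08 (SE 0.18). Of 16 electron carriers and exchangers, which include the member Atp5s under its newer name Dmac2l, 0 passed, with a median of 0.13, and cytochrome c (Cycs) was at 0.19 (SE 0.19) and cytochrome c1 (Cyc1) at 0.15 (SE 0.12). With spike-in scaling 0 genes of the assembly, mitochondrial DNA and carrier lists passed at an unadjusted p under 0.05, so Timmdc1 did not. Of all genes 0.85% were higher and 0.316% lower there. The edgeR test called 0 genes of the 5 lists examined after adjustment, with relative or with spike-in scaling.

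Of 20 tested regulators of respiratory genes, 2 were higher at an unadjusted p under 0.05 and 0 lower (1.74% and 2.53% of all genes), and both lie in the duplication. With spike-in scaling 1 was higher, Gabpa, beside 0.85% of all genes. Gabpa, whose promoter window overlaps one of Atp5j, was at 76.3, 103.9, 98.1 and 107 CPM in WT and 133, 163, 150.1 and 141 CPM in Dp1Tyb, without overlap (log2 fold change 0.61, SE 0.12, edgeR adjusted p = 0.33). Nrip1, a corepressor that acts against respiratory gene expression in fat and muscle, was at 88.2, 85.4, 115.1 and 119 CPM in WT and 155, 113, 136 and 147 CPM in Dp1Tyb, with overlap (log2 fold change 0.43, SE 0.14). The median of the list was -0.06. Nrf1, the nuclear respiratory factor, was at 0.08 (SE 0.16) and the coactivator Ppargc1a at -0.52 (SE 0.55), with 2.42 to 15.6 CPM in WT and 3.69 to 13.7 CPM in Dp1Tyb.

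Of 76 tested mitochondrial ribosomal protein genes, 4 were higher at an unadjusted p under 0.05 and 0 were lower (1.74% and 2.53% of all genes), with a median log2 fold change of 0.18. Both duplicated genes of the list were among the 4, and the 2 outside the duplication are a share close to that of all genes. Mrpl39 was at 35.1 to 53.7 CPM in WT and 63.6 to 83.0 CPM in Dp1Tyb (log2 fold change 0.71, SE 0.16, edgeR adjusted p = 0.47), and Mrps6 at 29.7 to 38.5 CPM in WT and 51.2 to 99.7 CPM in Dp1Tyb (0.86, SE 0.21, adjusted p = 0.56). The others, outside the duplication, were Mrpl2 (0.24, SE 0.11) and Mrpl58 (0.30, SE 0.13). With spike-in scaling 2 genes of the list were higher at that threshold, Mrpl39 and Mrps6, and 0 were lower (0.85% and 0.316% of all genes).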

How the data were processed

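Groups and replicate numbers came from the sample labels. The authors prepared poly(A) libraries with a stranded kit, sequenced 100-base pairs, trimmed reads with TrimGalore, aligned them with TopHat 2.0.12 to GRCm38 plus the spike-in sequences, discarded multialigning reads and counted genes with HTSeq. The deposited table used here holds these raw counts, not normalised. Deposited tables of normalised values and of the authors' own DESeq2 1.6.3 comparison (fold changes and p-values) were not used. The annotation release and strand setting are not given in the sources used here.

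Gene models, lengths (principal transcript) and the shared 100-base windows came from GENCODE M21, to which 175 gene IDs did not match, and promoters from RefSeq. Genes passing filterByExpr were tested, two-sided, in edgeR 4.0.16 (R 4.3.3), with library sizes from TMM or, for spike-in scaling, from median-of-ratios factors, with calls at p under 0.05 after Benjamini-Hochberg adjustment. DESeq2 1.42.0 was an alternative, with other scalings, filters, a replicate term and each library left out. Shares and ratios have no test. Summed over the genes passing the filter, the spread between cultures was far above counting error: chi-square per degree of freedom was 10.4 to 96.0 within genotypes. This sum does not give the counting error of a single gene or ratio, which is larger at low counts. The edgeR fit with relative scaling was tested on simulated counts, in which the planted fold changes were larger than that of any member. Members and lists were chosen with earlier results of these data known. Named members were Atp5o, Atp5j, all mitochondrially encoded genes, isoform families, the extremes of level and fold change in each complex, and members at an unadjusted p under 0.05 or without overlap; Ndufb5, Atp5b and Atp5a1 were added after their values were seen.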

Additional observations from a re-analysis of the deposited data

Results flagged for a closer look

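Among 128 groups of 4 values examined for a library far from its group (Dixon's criterion at the 95% level), 8 held one, or 6.25%, where chance gives about 1 in 20. In Dp1Tyb, replicate 2 was the high library for Atp5o (173 CPM, others 118 to 126 CPM), Atp5j (152 CPM, others 101.2 to 109.9 CPM) and mt-Co3 (3.23 CPM, others 1.87 to 1.90 CPM), and replicate 1 was high for Ndufa4l2 (9.09 CPM, others 1.97 to 2.13 CPM). In WT, replicate 2 was high for Uqcrfs1 (46.9 CPM, others 34.2 to 36.1 CPM) and replicate 1 for Cox6b2 (6.75 CPM, others 1.32 to 1.94 CPM). WT replicate 4 was low for Cox7a1 (0.680 CPM, others 0.933 to 0.983 CPM), which rests on 14 to 22 counts per library. WT replicate 1 was low in the log2 ratio of Atp5o to the other nuclear complex V members when the ratio was taken on mean log2 CPM (0.22, others 0.38 to 0.40), and Dp1Tyb lay above WT in every library on that scale too.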

How the results depend on the processing

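Atp5o and Atp5j stayed above 0 and without a call in edgeR under each alternative run, and passed in DESeq2 with relative scaling alone. All genes called numbered 3 with relative and 2 with spike-in scaling, 0 and 0 at 10 counts or more in every library, 7 and 9 with the replicate block, and 53 in DESeq2 with relative scaling, where 2 members were called. Leaving out each library gave 1 to 1 and 2 to 8 calls. The replicate block called 0 members. Replicate numbers do not pair the samples by the labels, and same-numbered libraries correlated at 0.38, 0.61, -0.03 and 0.39 in their deviations, below the limit set for pair 3; each Dp1Tyb library except replicate 3 correlated best with its own number. Members above 0 ran from 69 to 88 with relative and from 77 to 92 with spike-in scaling over the left-out libraries, beside 49.4 to 53.9% and 45.6 to 84.7% of all genes. Members at an unadjusted p under 0.05 numbered 6 (1.74% of all genes), 2 with upper-quartile factors (1.03%), 9 with the block (4.26%), 2 without Dp1Tyb replicate 2 (1.49%) and 3 without WT replicate 2 (2.48%). Among small fold changes, Sdhc was -0.0144 with upper-quartile factors and mt-Nd3 0.0205 with the block. With each library left out, values ranged from -0.43 to 1.46 for Ndufa4l2, -0.017 to 0.0893 for Sdhc, -0.11 to 0.19 for Uqcrfs1, -0.96 to 0.145 for Cox6b2, -0.45 to 0.0255 for Atp5e, -0.39 to 0.15 for mt-Atp6, -0.054 to 0.16 for mt-Co2, -0.27 to 0.205 for mt-Nd3, -0.0504 to 0.22 for mt-Nd5 and -0.31 to 0.0472 for mt-Nd6. The cause was not tested. Depth limits Cox4i2, Cox6a2, Cox6b2, Cox7a1, Ndufa4l2, Ndufb2, Ndufb6 and Atp5s, at under 320 counts per library. The same holds for mt-Co2, mt-Co3, mt-Atp6 and mt-Nd3.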
